A study of Mus musculus with 6 samples.

Results

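Costimulatory receptors and TNF family ligands, 10 genes taken by their symbols, were followed in mouse T cells cultured toward the Th17 state with and without Il17a. The 10 are Icos and Cd28, receptors of the CD28 family; Cd27, Tnfrsf4, Tnfrsf9 and Tnfrsf25, receptors of the TNF receptor superfamily; and Tnfsf8, Tnfsf11, Tnfsf14 and Cd40lg, ligands of the TNF superfamily. They account for 31 of 93480 transcripts and 10 of 38483 genes in the deposited table, and all 10 passed the filter on low counts that left 15121 genes for testing. RNA was sequenced from 6 cultures of splenic CD4+CD62L+ T cells of the B10.RIII strain, 3 from IL-17A+/+ wild-type and 3 from IL-17A-/- knockout animals. Every culture ran for 3 days with IL-6 and IL-23 (10 ng/ml each), TGF-β (1 ng/ml), and antibodies to IFN-γ and IL-4 (10 µg/ml each). The labels number the 3 samples of a genotype as replicates but do not say that they came from separate animals, so p-values measure only the spread between these samples, which may be technical. Age and sex of the animals, pooling and the making of the allele are not stated in them.

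A naive helper T cell that meets antigen needs a second signal. CD28 delivers it when it binds CD80 or CD86 on an antigen-presenting cell, and activation then brings further receptors to the surface, among them ICOS, OX40 (Tnfrsf4) and 4-1BB (Tnfrsf9), which signal through PI3-kinase or through TRAF adaptors and NF-kB and prolong the response. The activated T cell also carries TNF family ligands of its own, through which it acts on B cells, dendritic cells and stroma: CD40 ligand licenses B cells and dendritic cells, and RANK ligand (Tnfsf11), made by Th17 cells, drives osteoclast formation.

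Each library held 47335736 to 49743762 estimated counts. In CPM (counts scaled to a common library total), the wild-type cultures had Il17a levels of 108 to 211 and the knockout cultures of 0 to 1.11, which fits the genotype labels. The T cell markers Cd3e, Cd3d, Cd3g and Cd4 were present in every library, with sums of 1614 to 2453 CPM in wild-type and 1779 to 2232 CPM in knockout cultures. Il17f, a second Th17 cytokine gene, was at 259.6 to 376 CPM with Il17a intact and at 433 to 1285 CPM without it. The libraries with replicate number 1 stood apart in CD8 T cell markers (Cd8a and Cd8b1, summed), which summed to 423 CPM for wild-type 1 and to 658 CPM for knockout 1 but to 71.3 to 114 CPM for the other 4 libraries, and knockout 1 had the lowest Cd4, at 246 CPM, where all others had 379.6 to 634 CPM. Xist was at 0 and 2.58 CPM in knockouts 2 and 1 and at 567 to 664 CPM in the other 4 libraries, whereas the Y-linked Ddx3y reached 44.5 CPM in knockout 1 and 38.0 CPM in knockout 2 but at most 0.452 CPM elsewhere. By these genes, knockouts 1 and 2 looked male and the other 4 libraries female. For replicate numbers 1 and 2, genotype and sex therefore cannot be told apart, for any gene. Fits over all libraries, with or without a block for the number, carry the same limit. Libraries of equal number were treated as a pair where a paired value is given, a pairing taken from the data and not from the labels. In RNA from whole cultures, fewer cells of a type and less RNA per cell cannot be told apart.

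The 10 genes covered a wide range of levels, compared here as TPM, which scales counts for transcript length and for the library's total. Tnfrsf9 was highest at 714 ± 211 TPM (SD, n = 6 libraries of both genotypes), followed by Tnfrsf4 at 379 ± 90.6 TPM. Tnfrsf9 exceeded Tnfrsf4 in 6 of 6 libraries with no overlap of their ranges, and Tnfrsf4 likewise stood clear of Cd27, at 109 ± 55.1 TPM. The next genes were not separated by their spread: Tnfrsf25 was at 55.1 ± 15.9 TPM, Cd28 at 46.7 ± 15.2 TPM and Icos at 34.4 ± 14.1 TPM, and the range of each overlapped that of the gene above it, as the range of Tnfrsf25 overlapped that of Cd27. All 4 ligands lay below the 6 receptors in mean level. Tnfsf14 was at 15.5 ± 3.80 TPM and overlapped Icos in range but was below it in all 6 libraries. Tnfsf11 was at 8.03 ± 1.81 TPM, clear of Tnfsf14. Cd40lg, at 5.62 ± 2.13 TPM, was below Tnfsf11 in 4 of 6 libraries, and Tnfsf8, at 2.73 ± 0.929 TPM, was below Cd40lg in 5 of 6.

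**Figure D1:**
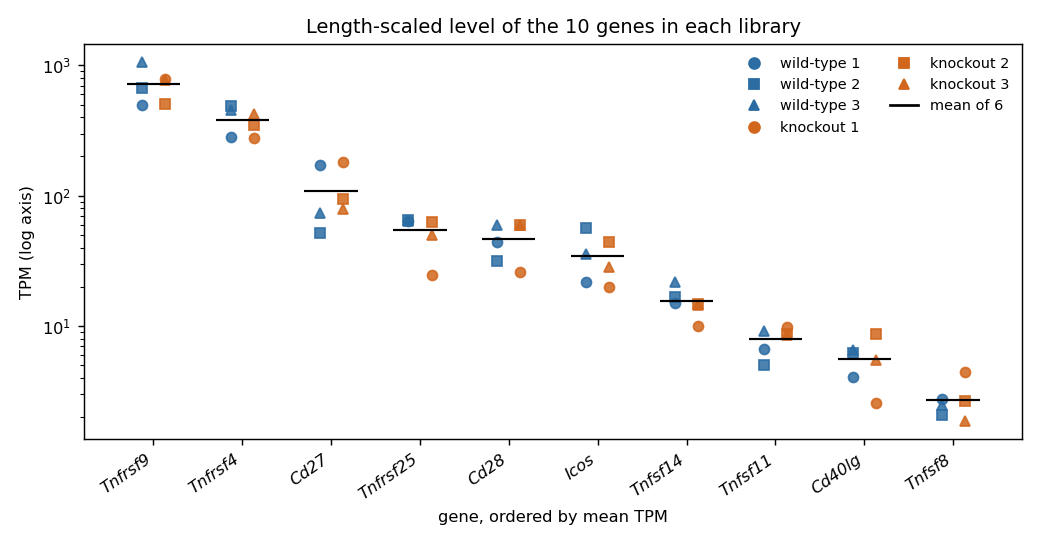
Level of each gene in TPM (log axis) in the 3 wild-type (blue) and 3 knockout (orange) libraries, with marker shape for the replicate number and a bar at the mean of 6 libraries. Tnfrsf9 and Tnfrsf4 stand above the other 8 genes, and the 4 ligands occupy the low end.

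Between the genotypes, few tests called any of the 10 genes. In edgeR's quasi-likelihood test without a block, 0 of 10 passed at an adjusted p under 0.05, and 0.0% of the 15121 genes tested did. Il17a was not called in it either, although the knockout libraries held almost none. A missing call in that fit therefore does not show that a gene was unchanged. None of the 10 reached an unadjusted p under 0.05 in that fit, against 1.67% of all genes, and none passed without a block in DESeq2, which called 0.086% of all genes, or in limma-voom. With the replicate number as a block, 0 of 10 passed in edgeR, and 2 of 10 (Icos and Tnfsf14, both lower) had an unadjusted p under 0.05, against 9.73% of all genes and 5.3% with lower levels. DESeq2 with the block called 1 of the 10, Tnfsf14, against 2.52% of all genes tested in either direction and 1.5% with lower levels in the knockout. Its unadjusted p was under 0.05 for 4 of the 10, all lower in the knockout, against 10.6% of all genes in either direction and 6.09% with lower levels. In all 3 pairs, 4 of the 10 differed in the same direction, and these 4 were lower in the knockout (Icos, Tnfrsf4, Tnfrsf25 and Tnfsf14), while 16.7% of all genes were lower and 16.6% higher in every pair. The levels of these 4 were correlated over the 6 libraries, with Pearson's r of log2 CPM from 0.64 to 0.87. They therefore do not count as separate differences. The median log2 change of the 10 was -0.15 without the block, beside 0.01 over all genes tested, and -0.15, -0.03 and -0.19 in pairs 1, 2 and 3.

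**Figure D2:**
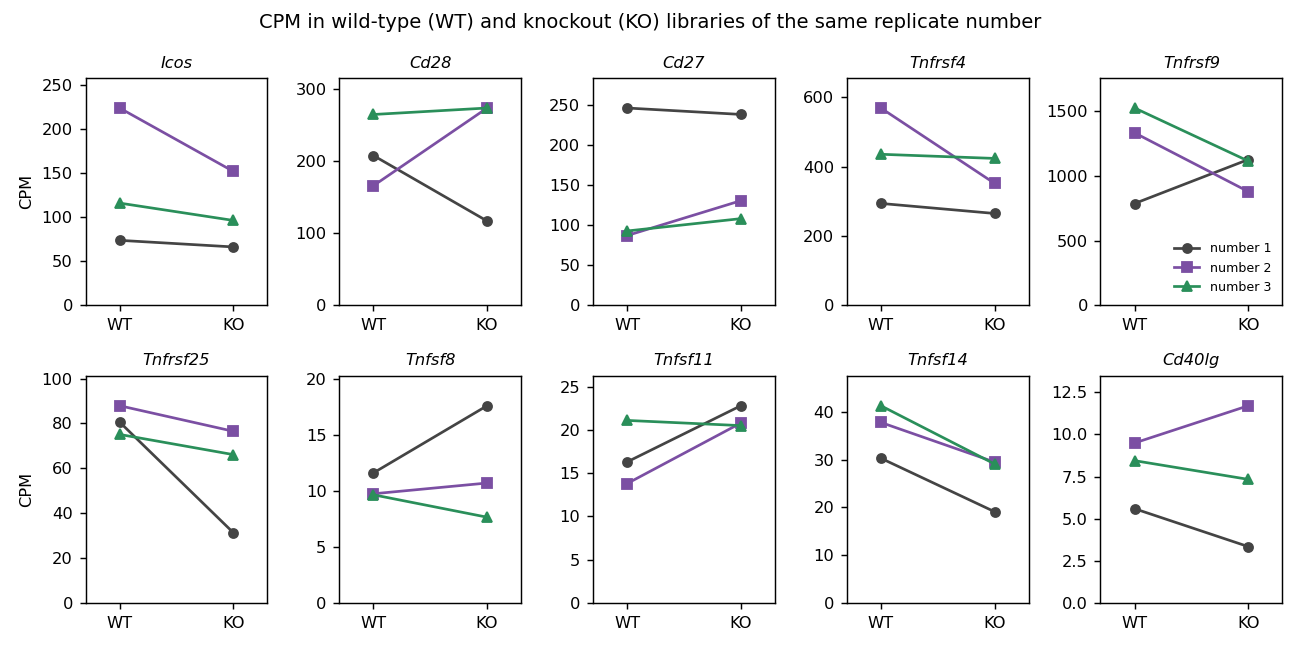
CPM of each gene in wild-type (WT) and knockout (KO) libraries, with lines joining libraries of the same replicate number; each panel has its own axis from 0. Tnfsf14, Icos, Tnfrsf4 and Tnfrsf25 slope down for all 3 numbers, and the other 6 genes hold lines of both slopes.

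Icos and Cd28 lie in 1 cluster on chromosome 1 (GRCm38) with Ctla4, the inhibitory relative that competes with CD28 for its ligands. Cd28 (ENSMUSG00000026012) spans 60716800 to 60773359, Ctla4 follows after a gap of 113.6 kb, and Icos (ENSMUSG00000026009) spans 60977927 to 61000320, after a further 62.1 kb. All 3 are on the plus strand. Il17a lies on the same chromosome, 40.0 Mb from Cd28. All 3 neighbours were lowest in knockout 1. Ctla4 and Icos were lower in the knockout in each pair, whereas Cd28 was lower in pair 1 only.

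ICOS, induced on activated T cells and bound by ICOS ligand, supports helper function and germinal centres. Icos was at 73.7, 224 and 116 CPM in wild-type libraries 1, 2 and 3 and at 66.2, 152 and 96.3 CPM in knockout libraries 1, 2 and 3. Number 2 was highest and number 1 lowest in both genotypes, the genotypes overlapped, and the knockout was lower in every pair. Between libraries of number 1, 2 and 3 the knockout differed by -0.15, -0.56 and -0.27 on the log2 scale. The unblocked log2 change was -0.40 (SE 0.46), and edgeR's adjusted p was 0.9999 without the block and 0.479 with it, while paired DESeq2 gave -0.34 (SE 0.13, adjusted p 0.171). Replicate number held 90.6% of the variance of log2 CPM among the 6 libraries and genotype 7.41%, against medians of 65.6% and 8.85% over all genes tested. Number has 3 levels and genotype 2, so each share compares with its own median and not with the other share. Without wild-type 2, the library with the highest value, the unblocked change was 0.15.

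CD28 is the constitutive costimulatory receptor of naive and activated T cells. Cd28 was at 208, 166 and 265 CPM in wild-type and 117, 274 and 274 CPM in knockout libraries. Knockout 1 was the lowest library, below every wild-type value, and knockouts 2 and 3 were above every wild-type value. The pair ratios were -0.84, 0.72 and 0.05 on the log2 scale, and the unblocked change was 0.06 (SE 0.35, edgeR adjusted p 0.9999). Knockout 1, lowest in Cd28, was also lowest in Cd4, and the part of its cell makeup in the Cd28 level was not tested. Ctla4 was at 1067, 1286 and 1381 CPM in wild-type and 796, 1035 and 1332 CPM in knockout libraries, lower in the knockout in each pair, with a paired DESeq2 change of -0.27 (SE 0.12, adjusted p 0.282) that did not pass.

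CD27, the receptor for CD70, is present on naive and memory T cells, on NK cells and on subsets of B cells. Cd27 (ENSMUSG00000030336, chromosome 6, 125232622 to 125237010, minus strand) was at 246, 86.9 and 92.6 CPM in wild-type and 238, 130.4 and 108 CPM in knockout libraries. Both number 1 libraries were far above the other 4, and the genotypes overlapped. Its log2 ratios were -0.05, 0.58 and 0.22, and the unblocked change was 0.16 (SE 0.48, edgeR adjusted p 0.9999). Replicate number held 91.1% of its variance, the largest share among the 10 genes. The number 1 libraries were also the highest of the 6 in CD8 T cell markers and in the summed NK cell markers. That sum was 213 and 362 CPM, where the other 4 had 62.2 to 125 CPM. Klrd1 held most of it, and Klre1 was likewise highest in the number 1 libraries. Ncr1 was at 0.286 CPM or less in every library, and Klrb1c was at 2.05 CPM or less, highest in knockout 2. The B cell marker Cd79a reached 51.6 CPM for wild-type 1 and 109 CPM for knockout 1 and ranged from 13.2 to 51.7 CPM in the others, and Cd79b, Ms4a1 and Cd22 were likewise highest in knockout 1. The part of cell makeup in the Cd27 level was not tested. Cd70, its ligand, held 1 to 12 counts per library and was not tested.

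**Figure D3:**
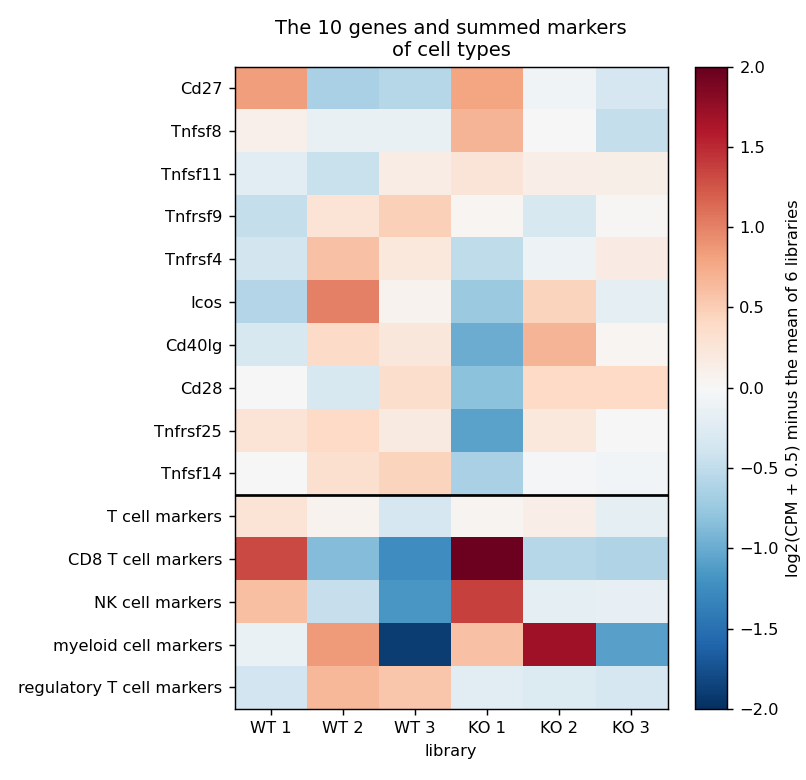
Each square is log2(CPM + 0.5) minus the mean of the 6 libraries, for the 10 genes (above the line) and for summed markers of 5 cell types (below it). Cd27 shares its high squares in WT 1 and KO 1 with the CD8 T cell markers and with the NK cell marker sum, which is mostly Klrd1. KO 1 is the lowest square for 6 of the 10 genes.

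Knockout 1 was the lowest of the 6 libraries for 6 of the 10 genes (Icos, Cd28, Tnfrsf4, Tnfrsf25, Tnfsf14 and Cd40lg), whereas 20.0% of all genes tested were lowest there. It was the highest library for Tnfsf8 and Tnfsf11. The CD8 T cell markers and the B cell marker Cd79a were highest in the same library, and their part in these levels was not tested.

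Tnfrsf4 (OX40; ENSMUSG00000029075, chromosome 4, 156013843 to 156016612) sustains survival and memory of activated CD4 T cells and is high on regulatory T cells. It was at 294, 569.6 and 436 CPM in wild-type and 265, 352 and 424 CPM in knockout libraries. The ranges overlapped, and the knockout was lower in each pair by log2 ratios of -0.15, -0.70 and -0.04, the largest in pair 2. Without pair 2 the paired DESeq2 change was -0.12. The unblocked change was -0.32 (SE 0.28, edgeR adjusted p 0.9999), and paired DESeq2 gave -0.31 (SE 0.15, adjusted p 0.432). Tnfrsf18 (GITR), the neighbouring gene 9.6 kb away and a related receptor, had pair ratios of -0.33, -0.74 and -0.46. It fell in the paired DESeq2 fit by 0.52 on the log2 scale (SE 0.12, adjusted p 0.00206), but its adjusted p in edgeR was 0.387 with the block. Summed regulatory T cell markers (Foxp3, Lrrc32 and Ikzf2) were at 61.6, 128 and 119 CPM in wild-type and 69.5, 66.8 and 63.7 CPM in knockout libraries, lower in the knockout in pairs 2 and 3. Foxp3 and Lrrc32 were lower in the knockout in all 3 pairs, with pair 1 at 14.7 and 11.3 CPM for Foxp3 and at 30.7 and 9.52 CPM for Lrrc32, while Ikzf2 was at 16.2 CPM in wild-type 1 and at 48.6 CPM in knockout 1. Their part in the Tnfrsf4 level was not tested.

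Tnfrsf9 (4-1BB, CD137; ENSMUSG00000028965, chromosome 4, 150914562 to 150946102, plus strand) is induced by antigen receptor signals and promotes T cell survival through TRAF adaptors and NF-kB. It was at 786, 1332 and 1524 CPM in wild-type and 1126, 878 and 1114 CPM in knockout libraries. All knockout values lay within the wild-type range. The pairs disagreed, with log2 ratios of 0.52, -0.60 and -0.45, and the unblocked change was -0.22 (SE 0.26, edgeR adjusted p 0.9999). Without the number 1 libraries, paired DESeq2 gave -0.52 (adjusted p 0.0277) on the 4 libraries left, where edgeR without the block gave the same -0.52 with an adjusted p of 0.9999, and with all 3 pairs it gave -0.19 (SE 0.21, adjusted p 0.884).

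The table lists 9 transcripts of Tnfrsf9, and their annotated starts bear on where its RNA begins. RefSeq (GRCm38.p6) places 2 start sites at 150920155 and 150927999. The 250 bases before each are shown because deposited transcripts start at exactly these positions; capitals mark matches, on either strand, to the NF-kB consensus, the AP-1 motif TGANTCA, the STAT motif TTCNNNGAA or the ROR element AGGTCA.
Tnfrsf9 first start, chr4:150919905-150920154, plus strand: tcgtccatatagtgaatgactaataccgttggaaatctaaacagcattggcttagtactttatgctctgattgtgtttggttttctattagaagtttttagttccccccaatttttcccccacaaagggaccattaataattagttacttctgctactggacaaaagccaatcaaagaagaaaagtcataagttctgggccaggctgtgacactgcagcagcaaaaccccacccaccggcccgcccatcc
Tnfrsf9 second start, chr4:150927749-150927998, plus strand: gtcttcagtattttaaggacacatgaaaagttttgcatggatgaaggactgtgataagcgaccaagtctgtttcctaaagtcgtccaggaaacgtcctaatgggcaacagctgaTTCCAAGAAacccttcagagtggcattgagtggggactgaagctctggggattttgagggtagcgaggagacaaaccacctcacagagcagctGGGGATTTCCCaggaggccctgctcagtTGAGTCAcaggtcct
The first window held no match to the 4 motifs. The second held a pair of overlapping NF-kB matches within bases -43 to -33 (base -1 is the last base before the start), an AP-1 match at -15 to -9 and a STAT match at -136 to -128. Of all 32851 promoter windows of this length in the table, 7.25% held an NF-kB match, 6.75% an AP-1 match, 7.02% a STAT match and 14.0% a ROR match. Transcripts that start within 100 nt of the first site (Tnfrsf9-201 and Tnfrsf9-001) held 53.0%, 59.2% and 55.3% of the gene's estimated counts in wild-type and 48.2%, 60.6% and 50.3% in knockout libraries. Those of the second site held 13.5%, 16.6% and 10.7% in wild-type and 13.9%, 18.0% and 10.4% in knockout libraries. Neither share separated the genotypes. Most of the rest belonged to Tnfrsf9-003, which starts further downstream.

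Among the Tnfrsf9 transcripts that held over 5% of the gene on average, 1 varied most between libraries. The short Tnfrsf9-005 (722 nt) held 2675, 52.0 and 8402 estimated counts in wild-type and 5418, 1259 and 7704 in knockout libraries, or 0.088% to 14.0% of the gene. Without it, the unblocked log2 change of Tnfrsf9 was -0.27 and its direction was kept. Because transcripts of 1 gene share most of their sequence, such shares depend on how reads were assigned and carry no error of their own here.

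Tnfrsf25 (DR3, the receptor for TL1A; ENSMUSG00000024793, chromosome 4, 152115934 to 152120119) carries a death domain and costimulates effector and regulatory T cells. Tnfrsf25 was at 80.6, 87.9 and 75.1 CPM in wild-type and 31.3, 76.5 and 66.1 CPM in knockout libraries. The wild-type libraries lay close together, knockout 1 was far below all others, and knockout 2 was within the wild-type range. The log2 ratios were -1.35, -0.20 and -0.18, all lower in the knockout. The unblocked change was -0.49 (SE 0.31, edgeR adjusted p 0.9999) and the paired DESeq2 change -0.59 (SE 0.24, adjusted p 0.221). Without knockout 1 the unblocked change was -0.20. Tnfsf15, the gene of its ligand TL1A, held 5 counts in wild-type 1 and 0 in the other 5 libraries, where a count of 0 allows up to 0.0634 CPM.

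The transcript split of Tnfrsf25 is given in full because its shares were the ones apart between the genotypes, a difference that did not pass its test. RefSeq gives the gene starts at 152115934 and 152116343, used by Tnfrsf25-001 and Tnfrsf25-002, and the 250 bases before each are shown with the same 4 motifs in capitals.
Tnfrsf25 first start, chr4:152115684-152115933, plus strand: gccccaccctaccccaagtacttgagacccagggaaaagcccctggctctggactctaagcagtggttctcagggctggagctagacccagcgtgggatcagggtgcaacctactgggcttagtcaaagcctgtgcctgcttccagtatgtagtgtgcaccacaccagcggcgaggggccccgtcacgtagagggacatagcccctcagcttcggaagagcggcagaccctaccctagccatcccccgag
Tnfrsf25 second start, chr4:152116093-152116342, plus strand: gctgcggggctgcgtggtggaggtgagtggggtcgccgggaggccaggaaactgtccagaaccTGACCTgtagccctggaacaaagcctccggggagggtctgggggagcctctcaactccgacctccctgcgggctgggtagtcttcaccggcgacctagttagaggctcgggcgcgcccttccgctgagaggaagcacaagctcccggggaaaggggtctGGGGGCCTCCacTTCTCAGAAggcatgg
The first window held none of the motifs, and the second held an NF-kB match at -28 to -19, a STAT match at -16 to -8 and a ROR match on the opposite strand at -187 to -182. Tnfrsf25-002 held 31.2%, 30.3% and 32.7% of the gene's estimated counts in wild-type and 38.4%, 37.4% and 38.5% in knockout libraries. Its share was higher in every knockout library than in any wild-type library, by 6.73 percentage points in the mean. Tnfrsf25-004, annotated as a processed transcript with no protein, held 34.0%, 35.9% and 29.9% in wild-type and 25.9%, 29.8% and 24.5% in knockout libraries, a mean difference of -6.56 points, and its ranges were apart by no more than the gap between 29.8% and 29.9%. Tnfrsf25-001 held 34.6% ± 1.43 in wild-type and 34.4% ± 2.76 in knockout (SD, n = 3). An exact two-sided permutation test gave p = 0.10 for Tnfrsf25-002 and for Tnfrsf25-004, the smallest value that 3 against 3 libraries allow. Adjusted over the 13 transcript shares compared, both were 0.65. Shares were apart for 2 of these 13, against 6.87% of the 17458 transcripts compared in the same way across the table (3.61% higher and 3.26% lower in the knockout). The 2 are shares of 1 gene, so a rise in either lowers the rest, and they do not count as separate differences. The change in absolute level did not pass in either case: Tnfrsf25-004 had a log2 change of -0.78 (SE 0.39) and Tnfrsf25-002 of -0.20 (SE 0.34), each with an edgeR adjusted p of 0.9999 over 36508 transcripts.

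**Figure D4:**
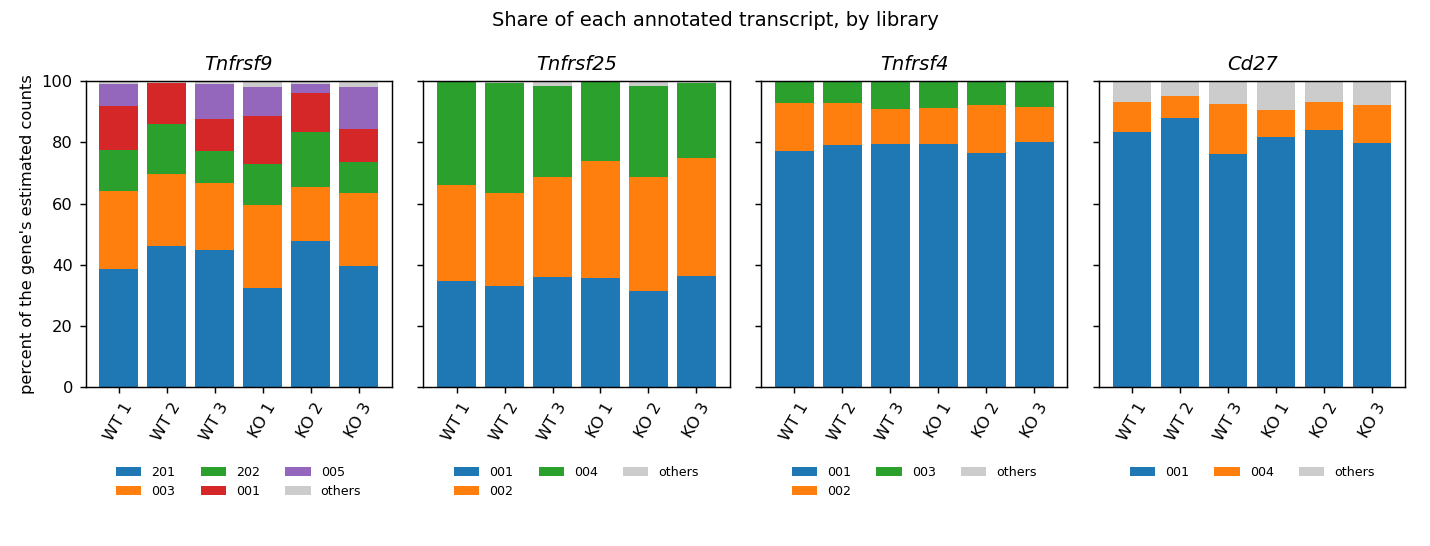
Percent of the gene's estimated counts assigned to each annotated transcript in each library; transcripts under 5% of the gene are pooled as others. Tnfrsf25-002 takes 37.4% to 38.5% in the KO libraries and 30.3% to 32.7% in the WT libraries, while the main transcripts of Tnfrsf4 and Cd27 hold similar shares in both.

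The remaining receptors were dominated by 1 transcript each. Cd28-001 and Icos-001 held 99.7% and 99.6% of their genes' counts, Cd27-001 held 82.3%, with 10.2% in Cd27-004, and Tnfrsf4-001 held 78.8%, with 13.2% in Tnfrsf4-002. Of the 28 member transcripts tested, 0 passed in edgeR without the block, where 0 also had an unadjusted p under 0.05 against 1.73% of all transcripts. In paired DESeq2 0 passed as well, against 1.13% of all transcripts.

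Among the ligands, Tnfsf14 showed the most even difference. LIGHT, its product, binds HVEM (Tnfrsf14) and the lymphotoxin β receptor, and costimulates T cells. Tnfsf14 (ENSMUSG00000005824, chromosome 17, 57189492 to 57194189, minus strand) was at 30.3, 37.8 and 41.3 CPM in wild-type and 19.1, 29.5 and 29.1 CPM in knockout libraries. All 3 knockout libraries were below the lowest wild-type library, which holds for 1 of the 10 genes and for 3.13% of all genes tested. The log2 ratios were -0.65, -0.35 and -0.50 in the 3 pairs. The means were 36.5 ± 5.63 and 25.9 ± 5.89 CPM (SD, n = 3), lower by 28.9%. Without the block, edgeR gave a log2 change of -0.49 (SE 0.22; unadjusted p 0.0562, adjusted p 0.9999), and with it the adjusted p was 0.366. In the paired DESeq2 fit Tnfsf14 fell by 0.52 (SE 0.15, adjusted p 0.023). On simulated counts that fit called unchanged genes more often than its threshold allows, so its adjusted p-values, here and for other genes, may be too small. The call was lost when pair 1, 2 or 3 was left out, with changes of -0.43, -0.60 and -0.52 and adjusted p of 0.726, 0.133 and 0.86 from the 2 pairs left, and it was not made at the transcript level, where the gene has 1 transcript and the adjusted p was 0.137. Its 250 bases before the RefSeq start are shown because it is the member that was called; the capitals mark an AP-1 match at -160 to -154, and the window held no match to the other 3 motifs.
Tnfsf14, chr17:57194182-57194431, minus strand: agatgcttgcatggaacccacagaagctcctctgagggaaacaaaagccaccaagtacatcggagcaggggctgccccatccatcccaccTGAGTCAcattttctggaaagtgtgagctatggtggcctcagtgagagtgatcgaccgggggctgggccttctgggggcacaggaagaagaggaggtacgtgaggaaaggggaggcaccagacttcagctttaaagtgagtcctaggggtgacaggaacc
Tnfsf9 (4-1BB ligand) and Cd70 (CD27 ligand) lie beside it in a cluster of TNF ligand genes. Cd70 is 39.7 kb from Tnfsf14, and Tnfsf9 lies beyond it, after 38.2 kb. Tnfsf9 had log2 ratios of 0.03, -0.06 and -0.19 in the 3 pairs.

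Tnfsf11 (RANK ligand; ENSMUSG00000022015, chromosome 14, 78277445 to 78308043) was at 16.3, 13.8 and 21.1 CPM in wild-type and 22.8, 20.8 and 20.5 CPM in knockout libraries. The knockout libraries were close together and overlapped the wild-type range through wild-type 3. Its log2 ratios were 0.47, 0.57 and -0.04, and the unblocked change of 0.32 (SE 0.19) did not pass, with an edgeR adjusted p of 0.9999 without and 0.547 with the block. Genotype held 46.7% of its variance, against 51.9% for Tnfsf14 and 34.2% for Tnfrsf25. For the other 7 genes genotype held 15.9% or less.

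Tnfsf8 (CD30 ligand; ENSMUSG00000028362, chromosome 4, 63831308 to 63861347) was the lowest of the 10 in TPM, at 11.6, 9.74 and 9.65 CPM in wild-type and 17.6, 10.7 and 7.65 CPM in knockout libraries. Knockout 1 was the highest and knockout 3 the lowest library. The log2 ratios of 0.58, 0.13 and -0.32 gave an unblocked change of 0.21 (SE 0.32, edgeR adjusted p 0.9999). The receptor of this ligand, CD30 (Tnfrsf8), was more abundant in these cultures than the ligand, at 41.4 ± 18.9 TPM in wild-type and 36.2 ± 15.8 TPM in knockout libraries (SD, n = 3).

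Cd40lg, the X-linked gene of CD40 ligand (ENSMUSG00000031132, chromosome X, 57212143 to 57224042), is expressed briefly on activated helper T cells. It was at 5.59, 9.49 and 8.44 CPM in wild-type and 3.34, 11.7 and 7.33 CPM in knockout libraries. Number 1 was lowest and number 2 highest in both genotypes. The log2 ratios were -0.66, 0.28 and -0.19, and the unblocked change was -0.07 (SE 0.46, edgeR adjusted p 0.9999). The libraries with little or no Xist, knockouts 1 and 2, held the lowest and the highest Cd40lg of the 6.

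**Figure D5:**
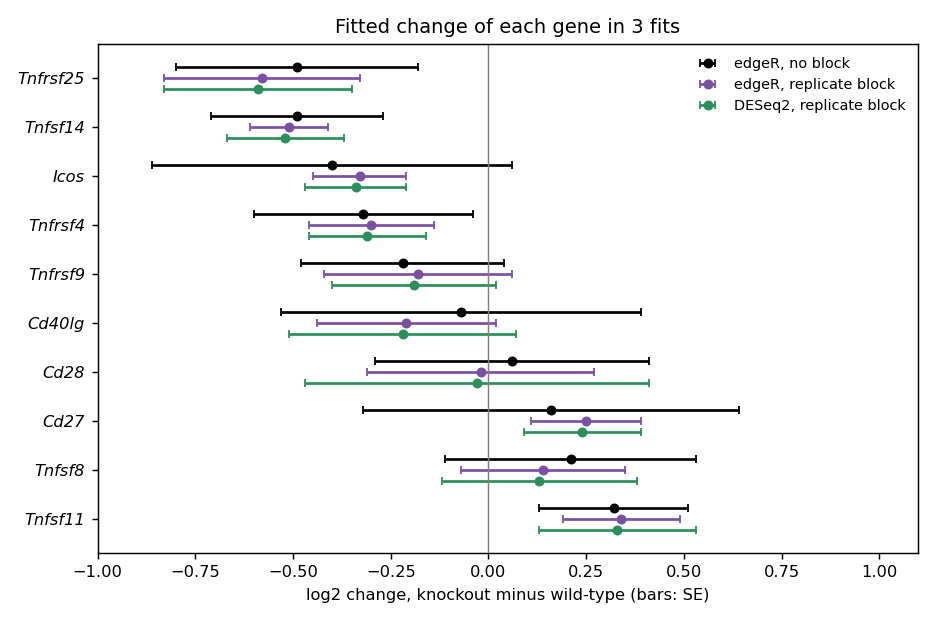
Fitted log2 change (knockout minus wild-type, bars are SE) of each gene in edgeR without a block, edgeR with the replicate block and DESeq2 with the replicate block. Tnfsf14 lies at -0.49, -0.51 and -0.52 in the 3 fits, and Cd28 lies on either side of 0.

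The wider pathway gave few calls. Of 24 adaptors and kinases downstream of costimulation, 0 passed in edgeR with or without the block, and 1 fell in paired DESeq2, which called 1.5% of all genes lower. This was Grap2 (GADS, which links SLP-76 to LAT and binds CD28), at 93.1, 93.0 and 114 CPM in wild-type and 70.9, 77.1 and 88.0 CPM in knockout libraries, a paired change of -0.36 (SE 0.11, adjusted p 0.0492). TRAF1, an adaptor of 4-1BB, was lower in the knockout in each pair, with Traf1 ratios of -0.01, -0.27 and -0.30, and did not pass (paired DESeq2 adjusted p 0.518). Among the higher ones Tradd, an adaptor of TNF receptors with death domains, had the smallest p in edgeR without the block, with an unblocked log2 change of 0.09 (SE 0.14) that did not pass. The median unblocked log2 change of the 24 was -0.04, beside 0.01 over all genes tested.

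Of 12 other TNF receptor superfamily members tested, 8 were lower in the knockout in all 3 pairs and 1 was higher, where 16.7% and 16.6% of all genes were. Their median log2 change was -0.24. Tnfrsf18 alone passed, in paired DESeq2 only. Tnfrsf13c, the BAFF receptor of B cells, was the member that was higher in every pair, at 14.0, 3.16 and 3.15 CPM in wild-type and 28.5, 15.0 and 3.40 CPM in knockout libraries. Like the B cell marker Cd79a it was highest in knockout 1, and it did not pass (paired DESeq2 change 1.12, SE 0.38, adjusted p 0.0865). Of 7 other TNF superfamily ligands tested, 0 passed in any of these fits. Lta (lymphotoxin α) was at 71.8, 263 and 154 CPM in wild-type and 80.9, 99.3 and 82.7 CPM in knockout libraries, with log2 ratios of 0.17, -1.40 and -0.89 and a paired DESeq2 adjusted p of 0.117. Among those that were higher, Tnf had the smallest p in edgeR without the block (log2 change 0.19, unadjusted p 0.487). With the block Tnfsf10 had a smaller p than Tnf, and neither passed.

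Of 11 tested partners that the members meet on other cells, 1 rose in paired DESeq2, which called 1.02% of all genes higher, and 0 passed in edgeR. This was Tnfsf4 (OX40 ligand), at 10.3, 1.71 and 4.64 CPM in wild-type and 25.1, 3.48 and 6.29 CPM in knockout libraries, a paired change of 0.91 (SE 0.27, adjusted p 0.0313). Its receptor gene Tnfrsf4 had a negative change in the same fit that did not pass. Both number 1 libraries had the highest Tnfsf4 of their genotype, and knockout 1 also the highest Cd79a, a B cell marker, and the part of B cells was not tested. CD80, a ligand of CD28, did not pass, with mean Cd80 levels of 3.85 ± 0.0601 CPM with and 5.83 ± 1.93 CPM without Il17a (SD, n = 3). Tnfrsf14, the gene of the LIGHT receptor HVEM, had the smallest p among the lower partners in edgeR without the block, with a log2 change of -0.28 and an unadjusted p of 0.544. With the block Tnfrsf8 had a smaller p than Tnfrsf14, and neither passed.

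Of 8 inhibitory receptors and ligands, 3 rose in paired DESeq2, where 1.02% of all genes were called higher, and 0 passed in edgeR. Cd160, which like BTLA shares HVEM with LIGHT, was at 18.2, 1.87 and 1.88 CPM in wild-type and 59.0, 2.72 and 6.46 CPM in knockout libraries, a paired change of 1.36 (SE 0.28, adjusted p 2.62e-04). Pdcd1 and Havcr2 had paired changes of 0.94 (SE 0.21) and 1.36 (SE 0.34), with adjusted p of 0.00132 and 0.0062. Both number 1 libraries had the highest Cd160 and Pdcd1 of their genotype, and the highest Cd8a, and the part of CD8 T cells in them was not tested. Havcr2, at 2.61, 4.71 and 1.00 CPM in wild-type and 4.54, 11.8 and 4.11 CPM in knockout libraries, was highest in number 2 of both genotypes. The summed myeloid markers, at 51.7, 103 and 14.9 CPM in wild-type and 85.8, 185 and 26.6 CPM in knockout libraries, were too, and they were higher in the knockout in all 3 pairs. Lyz2 was the largest part of the sum for number 2, with 58.7 CPM (wild-type 2) and 116 CPM (knockout 2). Itgam, Csf1r and Cd68 were likewise highest in number 2 of each genotype. Mpeg1 was instead highest in number 1, with 13.7 CPM (wild-type 1) and 43.9 CPM (knockout 1). Lyz2, Itgam and Mpeg1 were higher in the knockout in each pair, but Cd68 was lower in pairs 2 and 3 and Csf1r in pair 1. The part of myeloid cells in the Havcr2 level was not tested.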

How the data were processed

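The authors deposited an estimated count for each transcript in each of 6 libraries, with transcript length and GC content as a fraction, which entered no test. The submitters' processing notes list Bowtie2 2.1.0, eXpress 1.3.1 and the build GRCm38, with no settings given. Libraries were stranded, per the labels' protocols. Estimated counts were summed per gene and rounded. The main test was edgeR 4.0.16 (quasi-likelihood, TMM, filterByExpr, no block) of knockout against wild-type over 15121 genes, with Benjamini-Hochberg adjustment at 0.05. DESeq2 1.42.0 (no adjusted p for 880 genes with the block), limma 3.58.1 and fits with the replicate block were alternatives. R 4.3.3 and Python 3.11.15 with pandas 2.3.3 and scipy 1.17.1 ran these steps. The gene-level fits were tested on simulated data (1 draw without and 1 with a replicate effect): signs were mostly recovered, but the share of unchanged genes among the calls exceeded the nominal 0.05 for every tool and was highest for DESeq2, with and without the block. CPM used TMM-scaled library sizes, and pair ratios log2(CPM + 0.5). TPM divided estimated counts by full transcript length. Floors of 3 counts cover counting error only.

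Genotypes share the numbers 1 to 3. Deviations from the group mean had a correlation across genes of 0.45 to 0.64 for equal numbers and of -0.47 to -0.17 for unequal ones. All 3 values for equal numbers exceeded 0.1, and blocked fits and pair ratios rest on that; the labels do not state what a number marks.

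The members and lists were chosen with earlier results of these data known. Named were all 10 members, list genes past a test and list genes with the smallest p in each direction; Ctla4, Traf1, Tnfrsf8, Tnfsf9, Cd70 and Tnfsf15 were named as neighbours or partners after their values were seen. Promoter sequences are from RefSeq, GRCm38.p6, which held 9 windows for 7 of the 10 genes. Some marker and similarity results are not reported here.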

Additional observations from a re-analysis of the deposited data

How the results depend on the processing

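The count of genes called was 0 in edgeR without a block. It was 13 in DESeq2 without a block, 381 in DESeq2 with the replicate block (176, 264 and 149 without replicate 1, 2 or 3), and 0 to 1 in edgeR without each library in turn. The 1 gene was called without knockout 1. The count was 0 in limma-voom, in edgeR with the block, with RLE scaling and with the low-count filter off. Of the 10 genes, 1 was called in DESeq2 with the block (Tnfsf14) and 0 to 1 in that fit without each pair in turn (Tnfrsf9, without pair 1). The block changed no other member's call. Tnfrsf4, Tnfrsf25, Tnfsf11 and Tnfsf14 kept their direction in all 19 alternatives, with ranges of -0.53 to -0.07, -0.79 to -0.19, 0.19 to 0.52 and -0.62 to -0.33. Directions turned, and the cause was not tested, in these fits. Cd28 was at -0.02 in edgeR and -0.03 in DESeq2 and limma-voom with the replicate block, at -0.02 in unpaired limma-voom, at -0.09, -0.14 and -0.15 without wild-type 2, knockout 2 and knockout 3, at -0.41 (DESeq2, block) and -0.27 (edgeR) without pair 2, and at -0.07 without pair 3 (DESeq2, block). Icos was at 0.15 without wild-type 2. Cd27 was at -0.09, -0.08 and -0.26 without wild-type 2, wild-type 3 and knockout 1. Tnfrsf9 was at 0.01 without pair 2 (DESeq2, block). Tnfsf8 was at -0.18 without knockout 1, and at -0.09 (DESeq2, block) and -0.08 (edgeR) without pair 1. Cd40lg was at 0.09 and 0.26 without wild-type 2 and knockout 1, and at 0.05 (DESeq2, block) and 0.08 (edgeR) without pair 1. Leaving out Tnfrsf9-005, an alternative chosen after seeing the data, changed no call. Each pair ratio was recomputed with pseudocounts of 0.1 and 2, and 60 of 60 moved by less than the spread between replicates, and 4 of 10 ranks were the same in CPM without length scaling. Depth bears most on Cd40lg and Tnfsf8, which rest on 171 to 899 estimated counts a library.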

Other observations

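The gene with the most similar profile was sought for each member among 8916 others with a mean of at least 10 CPM, by Pearson's r of log2(CPM + 0.5) over the 6 libraries. The closest were Fut7 for Icos (r = 0.997), Apmap for Cd27 (0.995), Ass1 for Tnfrsf4 (0.99), Man1b1 for Tnfrsf9 (0.993), Stab2 for Tnfrsf25 (0.988), Fam20b for Tnfsf11 (0.984), Sec24a for Tnfsf14 (0.99) and Ldhb for Cd40lg (0.993). That of Cd28, at 0.991, was a septin gene whose symbol the deposited table spells as a date. Over all genes compared, the median of the highest r was 0.993, and the values for the members lay on both sides of it.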
